A study of Drosophila melanogaster with 28 samples.

Results

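Knockdowns of ars2 and U2A, a pair of general RNA processing genes, were compared with knockdowns of the control gene w in ovaries of Drosophila melanogaster, over every transposon family listed in the deposited tables. The 4 libraries concerned (1 for ars2, 1 for U2A and 2 for w) were taken by their titles out of 28 in the series, and 16 knockdowns of other genes with 1 library each served for orientation. The measurement was RNA sequencing of total RNA after removal of ribosomal RNA. All knockdowns used nos-GAL4, a driver that is active in the germline, to express double-stranded RNA in flies kept at 25 °C and fed yeast paste, and whole dissected ovaries were taken, which also hold somatic follicle cells. The labels give neither the ages of the flies nor the number of ovaries per library nor the background of each RNAi line. A second control was a pair of libraries from ovaries with no knockdown named in their labels.

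In germ cells, transposons are silenced by piRNAs, small RNAs that guide PIWI proteins to transposon transcripts and to their genes. Ars2 binds the nuclear cap-binding complex and is needed for microRNA and siRNA pathways in flies. U2A is the A′ subunit of the U2 small nuclear ribonucleoprotein, which recognises the branch site of introns. Transposons fall into LTR retrotransposons, which resemble retroviruses, non-LTR retrotransposons, which copy themselves into a nick in the chromosome, and DNA transposons. The gene w encodes an eye pigment transporter.

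Each value is a score, a whole number per family that the authors appear to have normalised and rounded. Neither labels nor headers name its unit. The genome-mapped reads behind the scores numbered 5600186 for ars2, 6468663 for U2A, and 3831461 and 3037471 for w, so the control libraries were the less deeply sequenced. The tables listed 176 families, 53 of them named for other Drosophila species. Testing was limited to the 159 families that reached a score of 10 in 2 or more libraries, of which 119 were families of D. melanogaster (60 LTR, 36 non-LTR, 22 DNA and 1 of none of these classes). Neither knockdown has a replicate. The limma tests of each against w therefore took the spread from the w pair and the ovary pair and assumed that a lone library varies as these do. The 2 pairs were unlike: over 159 families the SD of the log2 difference was 0.58 between the w libraries and 0.19 between the ovary libraries. Differences are on the log2(score + 1) scale, and a family was called at a Benjamini-Hochberg adjusted p under 0.05, 2-sided. The knockdown tables hold no genes, so the level of each target in its own library, and the germline content of the ovaries, could not be checked; fewer germ cells and less RNA per cell cannot be told apart in these bulk samples.

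The targets were present in the unperturbed tissue. Ars2 had an FPKM of 107 and 108 in the 2 ovary libraries and 86.5 and 95.5 in OSS, a line grown from the somatic cells of the ovary. U2A had 68.0 and 53.6 in ovary and 81.8 and 84.4 in OSS. Both genes were thus also transcribed in cultured ovarian somatic cells, and nos-GAL4 is a germline driver.

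The summed score over all families was 18269 in ars2 and 21756 in U2A, against 15342 and 12567 in w and 11546 and 10997 in ovary. Both sums lay above the 4 control libraries and low among the 18 knockdowns, at rank 16 for ars2 and 14 for U2A counted from the highest; the other 16 ranged from 13690 (Yb) to 78283 (shu), with a median of 37477. The classes behind these sums differed between the 2 libraries. Non-LTR families summed to 7127 in ars2 and 4039 in U2A, against 4412 and 3293 in w. LTR families summed to 8089 in ars2 and 14886 in U2A, against 8226 and 6397 in w. In the other 16 knockdowns the non-LTR sum ran from 2892 (tej) to 17677 (shu). Their LTR sum ran from 6837 (Yb) to 56627 (shu). The non-LTR sum of ars2 thus lay within the range of the others, while its share did not. The non-LTR share of all scores was 39.0% in ars2, the highest of 18 knockdowns (7.74% to 30.8% in the other 16), and 18.6% in U2A. The ratio of the LTR to the non-LTR sum was 1.14 in ars2, the lowest of 18 (1.76 to 11.2 in the other 16), and 3.69 in U2A, against 1.86 and 1.94 in w. Without Rt1c, a family whose scores in the 2 w libraries were far apart, the ratio was 1.35 in ars2 and 2.19 and 1.99 in w. These sums have 1 library per knockdown and no test. In ars2 a few families carried the non-LTR sum: with Rt1b, Rt1c, HeT-A, TAHRE and Fw2 left out, the non-LTR sum in ars2 was 3008, between the w values of 3215 and 2679. In U2A the LTR sum without blood was still 10419, against 7825 and 6165 in w.

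**Figure D1:**
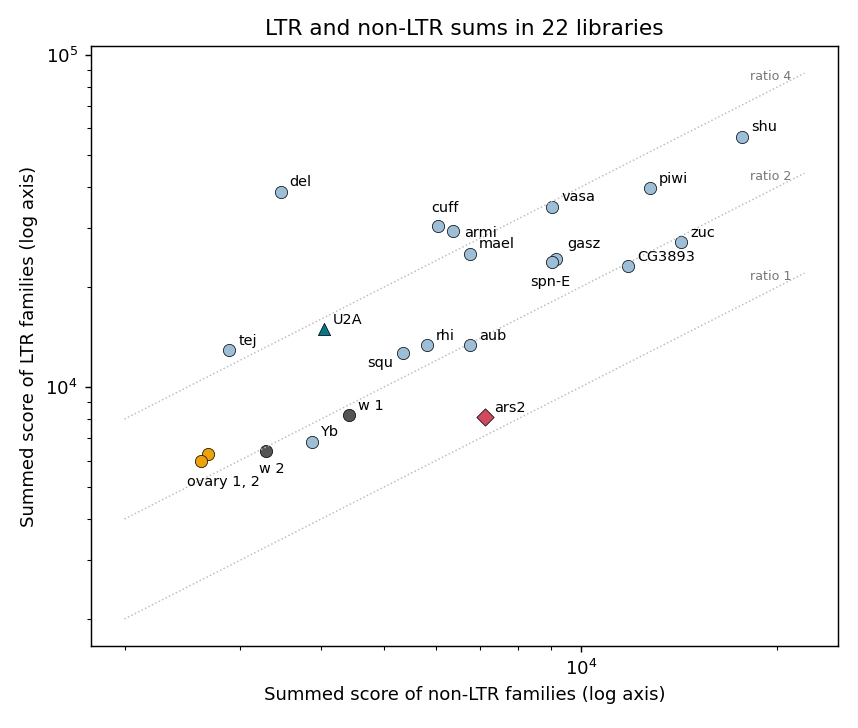
Summed score of the LTR families (vertical, log axis) against that of the non-LTR families (horizontal, log axis), 1 point per library, with dotted lines at ratios of 1, 2 and 4. ars2 (diamond) lies nearest the line of ratio 1, at 1.14, and U2A (triangle) near the line of ratio 4, at 3.69, while the w and ovary libraries lie near the line of ratio 2.

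In the ars2 library 6 families were called higher than w and 0 lower, 3.77% and 0% of the 159 tested, with 27 families (17%) at an unadjusted p under 0.05. The 6 were Rt1b, HeT-A, gypsy12, Fw2, Bari1 and Dmir_spock, a family named for D. miranda. Rt1b, a non-LTR element of the R1 group, scored 1620 in ars2 against 179 and 221 in w and 95 and 87 in ovary. It was thus higher than in every control library, by a log2 difference to w of 3.02 (SE 0.26, adjusted p = 0.0251 by limma), and made up 8.87% of all scores in the library against 1.17% and 1.76% in w. HeT-A, which is added to chromosome ends in flies in place of telomerase repeats, scored 805, with w at 151 and 112 and ovary at 88 and 86. Its log2 difference to w was 2.62 (SE 0.31, adjusted p = 0.0346 by limma).

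The 4 others were less abundant. The LTR family gypsy12 scored 540 against 167 and 149 in w (log2 difference 1.77, SE 0.23, adjusted p = 0.0393 by limma). The non-LTR family Fw2 scored 180 against 43 and 61 (1.79, SE 0.27). The DNA transposon Bari1 scored 82 against 28 and 21 (1.72, SE 0.26, adjusted p = 0.0486 by limma, as for Fw2), which put it above all 16 other knockdowns, whose scores ran from 14 to 65. Dmir_spock scored 268 against 45 and 60 (2.34, SE 0.26, adjusted p = 0.0346 by limma). In each of the 6, the ars2 value lay above both w and both ovary values. Of the 6, only Bari1 was above all 16 other knockdowns. Rt1b, Fw2 and Dmir_spock were also high in aub, CG3893, rhi, spn-E, vasa and zuc, at 1189 to 2904, 178 to 359 and 155 to 393. In the remaining knockdowns Dmir_spock scored 29 to 79, while Fw2 was also high in piwi (318) and Yb (466). Among 18 knockdowns, ars2 ranked 10 for HeT-A and 9 for gypsy12. Why these families were high in the same libraries was not tested.

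These calls rest on the spread of few libraries. Leaving out either w library also leaves the ovary pair as the only source of spread. With the spread taken from the w pair alone 0 families were called, as with no filter on low scores, and 0 without w replicate 2 or without ovary replicate 1; without w replicate 1, 3 were called higher (HeT-A and gypsy12 of the 6, and Rt1c) and 4 lower. Fw2 was not called after median-ratio scaling, nor were Fw2 and Bari1 with a pseudocount of 0.1 or without the intensity trend in the variance. By value alone, 10 families in ars2 lay at least 2-fold above both w libraries (6.29%) and 2 at least 2-fold below both (1.26%). For scale, 6 families were at least 2-fold higher in w replicate 1 than in w replicate 2 (3.77%) and 5 lower (3.14%), and 0 differed so between the ovary libraries. Of the 10 families above w, 8 were also at least 2-fold above both ovary libraries; the exceptions were gypsy, at 476 in ars2 and 222 and 254 in ovary, and Dbuz_BuT6, at 19 in ars2 and 25 and 19 in ovary.

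The other 4 of those 10 families were not called. Dbuz_BuT6 had a log2 difference to w of 2.37 (SE 0.40, adjusted p = 0.0633 by limma). TAHRE, the other telomeric family listed, scored 397 in ars2 against 172 and 135 in w, with ovary at 136 and 125, and its log2 difference to w was 1.38 (SE 0.28, adjusted p = 0.0823 by limma). The LTR family gypsy7 scored 220 against 73 and 47 (1.89, SE 0.33, adjusted p = 0.0633 by limma). The LTR family gypsy, which carries an envelope gene and is known for its activity in follicle cells, scored 476 against 226 and 170 (1.28, SE 0.27, adjusted p = 0.0884 by limma). Rt1c, a relative of Rt1b, scored 1117, above both w values, but those were 652 and 85. Its log2 difference of 2.24 (SE 1.21, adjusted p = 0.404 by limma) was within the spread of the control. Among 18 knockdowns ars2 ranked 12 for TAHRE, 6 for gypsy7, 7 for gypsy and 5 for Rt1c. In aub, CG3893, rhi, spn-E, vasa and zuc, gypsy7 scored 161 to 361, gypsy 425 to 693 and Rt1c 856 to 1450. Why these families were high there was not tested. Telomeric families together summed to 1202 in ars2, 281 in U2A, 323 and 247 in w and 224 and 211 in ovary.

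**Figure D2:**
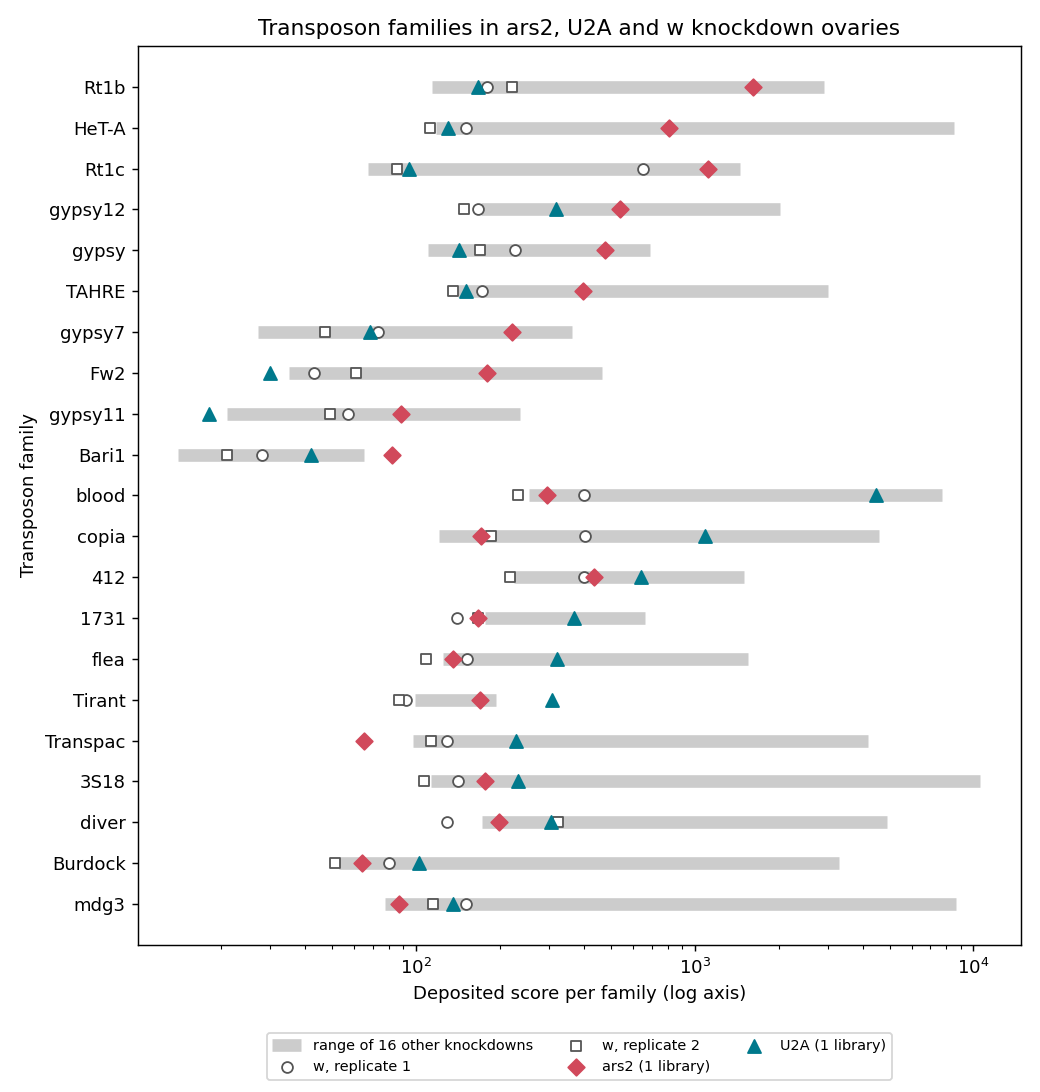
Scores of 21 families (log axis) in the 2 w libraries (open circle and square), in ars2 (diamond) and in U2A (triangle), with a grey bar for the range of the 16 other knockdowns. From Rt1b to Bari1 the diamond stands to the right of both open symbols, from blood to Tirant the triangle does, and for 3S18, Burdock and mdg3 both lie at the left end of the grey bar.

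Not every family with high scores in most other knockdowns was above the control in ars2; blood, Burdock and 3S18 were near it, whereas HeT-A and gypsy12 were called higher. The LTR family blood scored 294 in ars2, between the w values of 401 and 232, whereas 15 of the 16 other knockdowns ran from 1777 (aub) to 7705 (vasa) and Yb stood at 253. Burdock, an LTR family often used to report on germline silencing, scored 64 in ars2 against 80 and 51 in w, and again 15 of 16 were higher, from 229 (aub) to 3291 (shu), with Yb at 53. The gene behind Yb is known to act in ovarian somatic cells. The LTR family 3S18 scored 176 against 141 and 107 in w, a log2 difference of 0.52 (SE 0.40, adjusted p = 0.547 by limma), and up to 10588 (del) elsewhere. Of 31 families listed as silenced in the germline, 13 had a positive and 18 a negative difference in ars2. In this list 2 were called higher (Rt1b and Bari1) and 0 lower, against 6 and 0 of all 159 families (3.77% and 0%). The median of the list was -0.05, against -0.04 over all 159 families. At the lower end of the D. melanogaster families stood invader5, at 26 in ars2 against 42 and 62 in w (-0.95, SE 0.31, adjusted p = 0.252 by limma), Transpac at 65 against 129 and 113 (-0.88, SE 0.23, adjusted p = 0.143), G7 (-0.75), gypsy5 at 56 against 109 and 81 (-0.74) and copia (-0.67). None of the 5 was called. Transpac in ars2 was below all 16 other knockdowns, whose lowest score was 97.

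In U2A knockdown ovaries 0 families were called by limma in either direction, 0% of 159, with 23 (14.5%) at an unadjusted p under 0.05. The leading families were LTR elements. The family blood scored 4467 in U2A against 401 and 232 in w and 203 and 195 in ovary, and so stood above all 4 controls and held 20.5% of all scores in the library against 2.61% and 1.85% in w. Its log2 difference to w was 3.87 (SE 0.52, adjusted p = 0.0632 by limma), and only 3 of the 16 other knockdowns scored higher. Tirant, a gypsy-like element with an envelope gene, scored 308 against 92 and 87 in w and 93 and 94 in ovary, so that its log2 difference to w was 1.77 (SE 0.18, adjusted p = 0.0517 by limma). That was above every other knockdown of the series, which ran from 99 to 194, with ars2 at 169 (log2 difference to w 0.91, SE 0.18, adjusted p = 0.0823).

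The LTR family copia scored 1092 in U2A, against 404 and 185 in w and 260 and 263 in ovary (log2 difference to w 1.99, SE 0.52, adjusted p = 0.182 by limma). The LTR family flea scored 320 against 152 and 108 (1.31, SE 0.28, adjusted p = 0.131 by limma). In both families the U2A value lay above all 4 controls.

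By value alone, 6 families in U2A lay at least 2-fold above both w libraries (3.77%) and 3 at least 2-fold below both (1.89%). Of the 6, 5 were LTR families (blood, copia, Tirant, flea and a copia-group family with a number for its name), and these 5 were also at least 2-fold above both ovary libraries; the remaining family was Dbuz_BuT6, at 14 in U2A, 2 and 4 in w and 25 and 19 in ovary. The counts were 20 and 10 without w replicate 1 and smaller without w replicate 2. The 3 below w were gypsy11, Damb_P-element_T and Dnet_R1A, and 0 of them lay 2-fold below the ovary libraries. For gypsy11, the U2A score was 18, w was at 57 and 49, and ovary at 26 and 25 (log2 difference to w -1.50, SE 0.21, adjusted p = 0.0632 by limma). The other low families were Rt1c, at 94 in U2A (-1.32 against the divergent w pair, and 0.14 without w replicate 1), invader5 (-0.84), Bari2 (-0.82) and Fw2, at 30 in U2A (-0.75, SE 0.27).

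The absence of calls in U2A depended on the settings. With families under a score of 50 left out, 5 were called higher and 3 lower; after median-ratio scaling, or without the families named for other species, 2 were called higher (blood and Tirant) and 1 lower (gypsy11). Calls in both directions appeared without w replicate 1 but not without w replicate 2. With 1 w library left, the spread came from the ovary pair alone. Positive differences outnumbered negative ones as deposited, 108 to 51 with a median of 0.13, but not after median-ratio scaling, with 74 to 85 and a median of -0.04.

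Groups of families were described by their counts and medians. In U2A 48 of 60 LTR families had a positive difference (median 0.31; 41 of 60 and 0.12 after median-ratio scaling), and 22 of 36 non-LTR families did (median 0.11; 14 of 36 and -0.08). In ars2 the LTR families split 29 to 31 (median -0.03) and the non-LTR families 18 to 18. Of 31 germline families 29 were positive in U2A, with 0 called and a median of 0.28, and 18 were after median-ratio scaling (0.09). The families for which spliced transcripts are known (P-element, copia, gypsy, ZAM, Tirant and Idefix) were of interest because U2A acts in splicing. In U2A 4 of the 6 were positive, against 108 of all 159 families, and the median was 0.26, against 0.13 over all. Of the 6, copia and Tirant were at least 2-fold above both w libraries, as were 6 of all 159 families (3.77%). A link to splicing was not tested. ZAM was at 81 in U2A against 86 and 55 in w, P-element at 15 against 19 and 22, gypsy at 143 against 226 and 170, and Idefix at 145 against 155 and 91, so these 4 did not stand above both w values. The 4 families known as sources of endogenous siRNAs (mdg1 and 3 whose names are numbers) were of interest because Ars2 acts with siRNAs. They were positive in both, with 0 called and medians of 0.31 in ars2 and 0.97 in U2A. Of all 159 families, 72 were positive and 6 called in ars2 (median -0.04), and 108 and 0 in U2A (median 0.13). In ars2 the differences of the 4 ran from 0.08 to 0.56, and mdg1, at 158, lay between its w values. A link to siRNAs was not tested. The 4 families summed to 975 in ars2 and 1513 in U2A, against 925 and 623 in w. In U2A mdg1 scored 264 against 182 and 123 in w (0.81, SE 0.32, adjusted p = 0.356 by limma). The ribosomal DNA element R1A1-element scored 231 in U2A and 99 in ars2, against 145 and 122 in w. The 12 families of the ovarian soma summed to 1754 in ars2 and 1832 in U2A, against 1580 and 1245 in w and 1294 and 1249 in ovary, with 0 called in either knockdown; their Stalker2 was at 127 in U2A against 77 and 53 (0.98, SE 0.29).

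**Figure D3:**
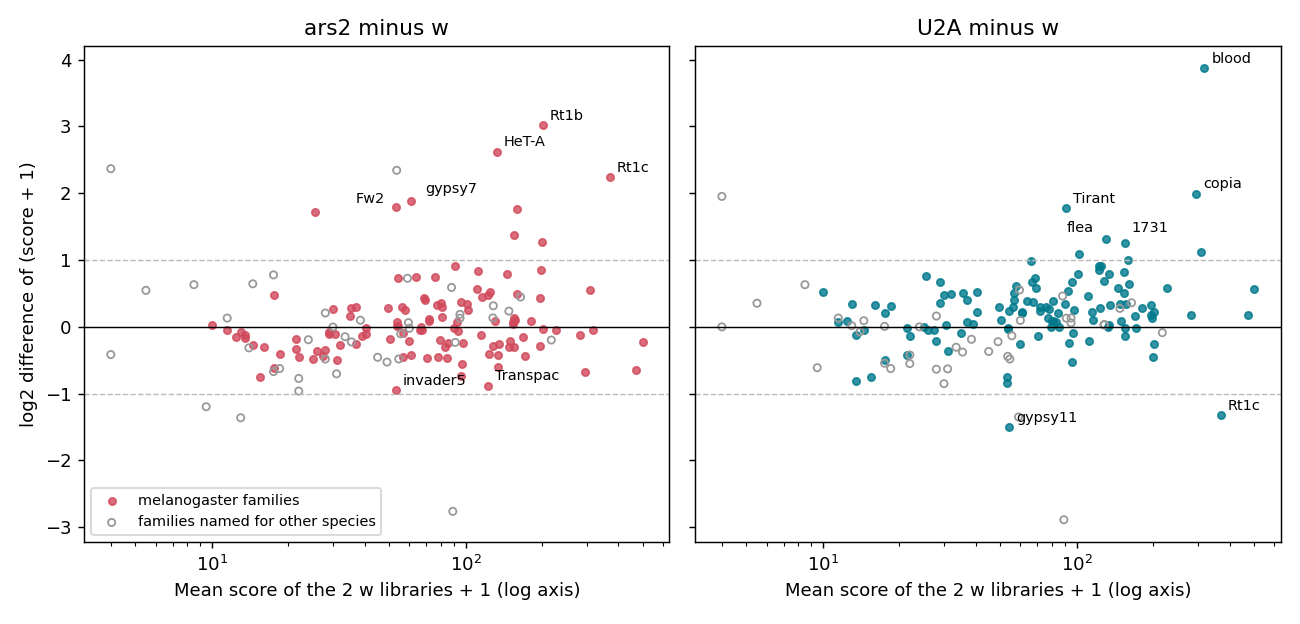
Log2 difference of (score + 1) from w (vertical) against the mean score of the 2 w libraries plus 1 (horizontal, log axis) for 159 families, for ars2 and U2A, with dashed lines at 2-fold. Most families lie within the dashed lines in both panels; Rt1b at 3.02 and HeT-A at 2.62 lead in ars2, and blood at 3.87 and copia at 1.99 in U2A.

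The U2A and ars2 libraries were also compared directly, 1 library against 1, so the test compares these libraries with a spread borrowed from the w and ovary pairs. For U2A minus ars2, limma called 8 of 159 families (5.03%), 2 higher in U2A (1.26%) and 6 lower (3.77%), with 27 (17%) at an unadjusted p under 0.05. Higher in U2A were blood, by a log2 difference of 3.92 (SE 0.60, adjusted p = 0.0384 by limma), and Transpac, at 228 against 65 (1.80, SE 0.27, adjusted p = 0.0382). Lower in U2A were Rt1b, at 167 against 1620 (-3.27, SE 0.30, adjusted p = 0.022), Dmir_spock, at 38 against 268 (-2.79, SE 0.30, adjusted p = 0.022), HeT-A, at 130 against 805 (-2.62, SE 0.36, adjusted p = 0.0345), Fw2, at 30 against 180 (-2.55, SE 0.31, adjusted p = 0.0292), gypsy11, at 18 against 88 (-2.23, SE 0.24, adjusted p = 0.022), and Damb_P-element_T, at 22 against 96 (-2.08, SE 0.29, adjusted p = 0.0345). For Rt1b, HeT-A and Fw2 it was ars2 that stood apart from the controls, and for blood it was U2A. Fw2 in U2A also lay below both w values (43 and 61) and both ovary values (40 and 38). Among 18 knockdowns ars2 ranked between 5 and 10 in the 6 families lower in U2A. High scores in them were thus not particular to ars2. Copia (2.67, SE 0.60, adjusted p = 0.109 by limma), flea (1.23), R1A1-element (1.21) and Rt1c (-3.56, SE 1.40) were not called. With the spread from the w pair alone, with no filter on low scores, or without ovary replicate 1, 0 were called; after median-ratio scaling 5 were higher and 10 lower, among them all 8. Without w replicate 1, or without w replicate 2, the spread came from the ovary pair alone. The SD of its log2 difference was 0.19, against 0.58 for the w pair. The larger set of families then called did not include Dmir_spock and Damb_P-element_T.

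Taken as 1 group of 2 libraries against w, ars2 and U2A gave 0 calls (0%) in limma, with 7 families at an unadjusted p under 0.05 (4.4%). Only 1 family was at least 2-fold above both w libraries in both knockdowns and 1 at least 2-fold below (0.629% each), and both are named for other species. Dnet_R1A scored 11 and 10 in ars2 and U2A against 52 and 124 in w (log2 difference -2.82, SE 0.43, adjusted p = 0.0732 by limma), but 12 and 11 in ovary. Dbuz_BuT6, at 19 and 14 against 2 and 4, had 2.16 (SE 0.39, adjusted p = 0.0885 by limma) and was nearer the ovary values of 25 and 19. Both families also split the other knockdowns. Dnet_R1A scored 8 to 14 in armi, aub, CG3893, rhi, spn-E, tej, vasa and zuc. It scored 51 to 162 in cuff, del, gasz, mael, piwi, shu, squ and Yb. Dbuz_BuT6 scored 19 to 27 in aub, rhi, spn-E and zuc and 1 to 6 in the remaining knockdowns. The cause of these splits was not tested. Among D. melanogaster families the mean differences were led by blood (1.91, SE 1.64), which was high in U2A alone, then gypsy12, at 540 and 318 against 167 and 149 in w and 140 and 136 in ovary (1.39, SE 0.53, adjusted p = 0.852), Rt1b (1.38, SE 1.10), Tirant, at 169 and 308 against 92 and 87 (1.34, SE 0.39, adjusted p = 0.624), HeT-A (1.31, SE 0.84) and Bari1, at 82 and 42 against 28 and 21 (1.24, SE 0.38, adjusted p = 0.624). For gypsy12, Tirant and Bari1 both knockdown values lay above both w values. The lowest was invader5, at 26 and 28 against 42 and 62 (-0.90, SE 0.30, adjusted p = 0.691).

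Both libraries were set against the 16 other knockdowns, a comparison without the w libraries in which the spread is that between knockdowns of different genes. limma called 0 of 159 families (0%), with 7 (4.4%) at an unadjusted p under 0.05. The lowest p-values belonged to Burdock, with ars2 at 64 and U2A at 102 against a median of 989.5 in the others (log2 difference -3.47, SE 1.01, adjusted p = 0.428), Tirant (0.77, SE 0.25, adjusted p = 0.458), diver, at 198 and 305 against a median of 2359 (-2.80, SE 0.96, adjusted p = 0.458), 3S18, at 176 and 232 against a median of 5727 (-3.90, SE 1.45, adjusted p = 0.574), and Dvir_Uvir, at 106 and 102 against 57 to 97 (0.50, SE 0.20). The same rule of 2-fold outside both w libraries that gave 10 families above w for ars2 and 6 for U2A gave between 4 (tej) and 34 (shu) in the other 16, which share these controls; squ and Yb also had 6. Within the 119 tested D. melanogaster families, ars2 scored above all 16 in 3 (Bari1, accord2 and aurora-element) and below all 16 in 8. U2A scored above all 16 in Tirant and below them in Fw2 and gypsy11. Any library set against 16 others can be highest or lowest in some families. No such counts were made for the other knockdowns, so these are not shown to be traits of ars2 or U2A.

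**Figure D4:**
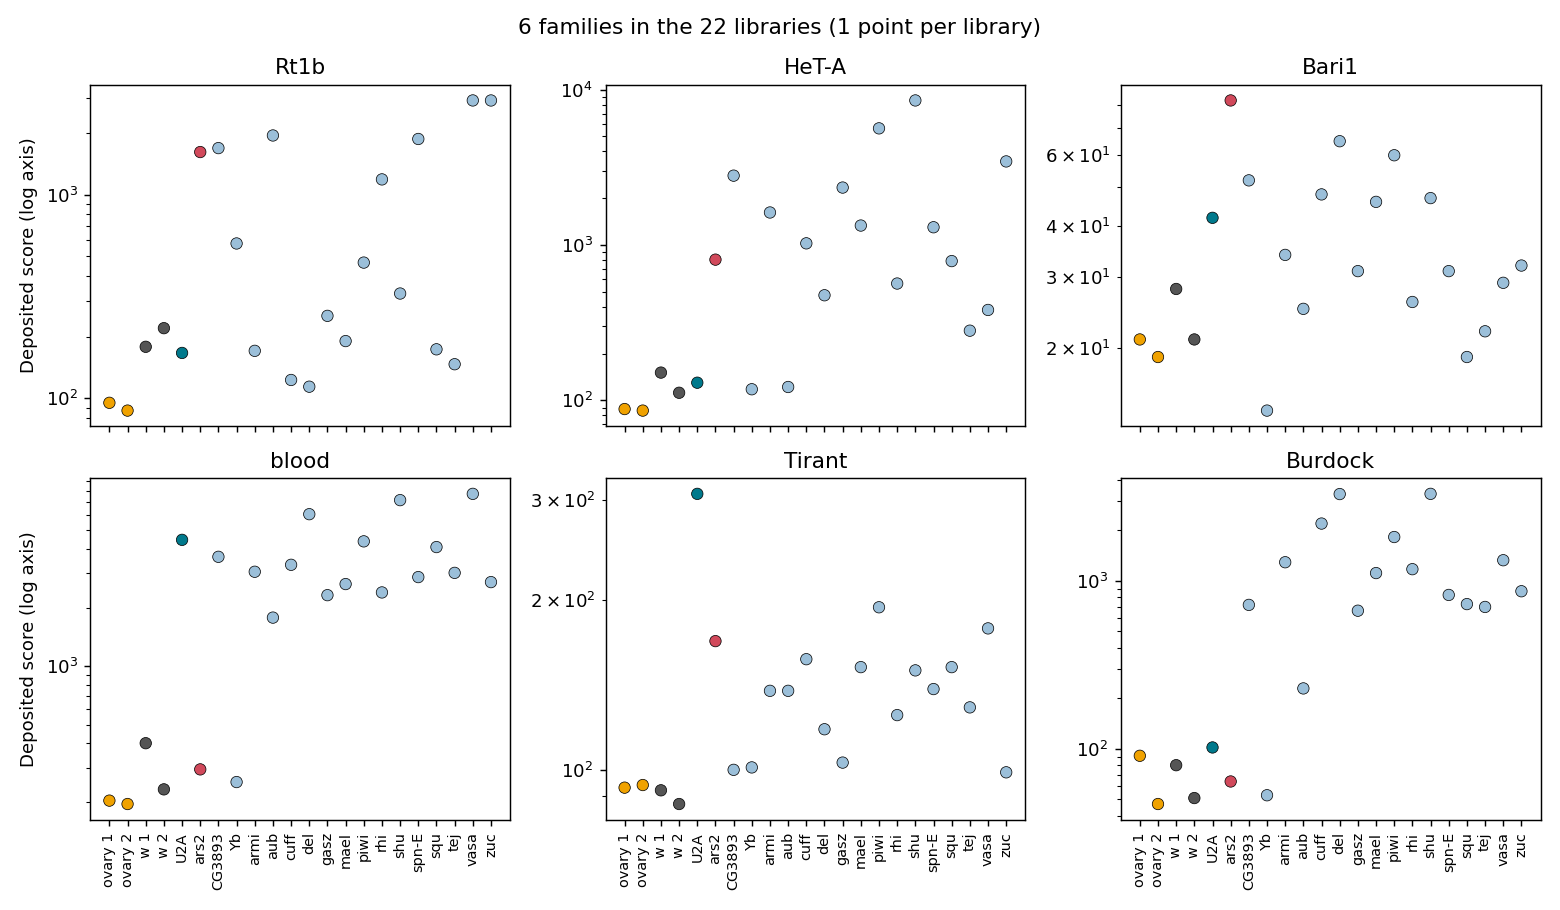
Scores of 6 families (log axis, 1 scale per panel) in the 22 libraries, with ovary in orange, w in grey, U2A in teal, ars2 in red and the other knockdowns in light blue. ars2 stands with the higher knockdowns for Rt1b and above all of them for Bari1, U2A stands with the higher knockdowns for blood and above all for Tirant, and both stand with the controls and Yb for Burdock.

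Over the 119 D. melanogaster families, the ars2 library was most like that of aub, a PIWI protein of the nuage, by the correlation of log2(score + 1) (Pearson's r = 0.915, Spearman's rho = 0.942). It was followed by rhi on both measures (0.899 and 0.94). The w replicate 1 library came next by Pearson's r (0.898), but its rho of 0.899 was below those of vasa, spn-E, CG3893, Yb and zuc (0.907 to 0.937). For ars2 with U2A r was 0.822 and rho 0.872. The U2A library was most like w replicate 1 by r (0.923, rho 0.939) and ovary replicate 1 by rho (0.943, r 0.921), with ovary replicate 2 close behind (r 0.915, rho 0.936). These values describe likeness across families that share their baseline abundance in all libraries and carry no test. The aub library resembled ars2 in Rt1b, at 1954 against 1620, and not in blood, at 1777 against 294, or in HeT-A, at 122 against 805.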

How the data were processed

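Transposon tables of 22 libraries and gene tables of the 2 ovary and 2 OSS libraries were used as deposited. Build dm3 and the tools TopHat, Bowtie, Cufflinks and CASAVA 1.3 come from the submitters' processing notes, while no source used here says how reads were assigned to families and strands. The deposited transposon values are a score of unstated unit. Its median over the tested families, 55.0 to 90.0, did not rise with the genome-mapped reads (2026093 to 20185962), so the authors appear to have scaled it, and no counting intervals are given. The deposited gene values are FPKM, made by the authors and used without further scaling.

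Scores were joined by family name, and 1 line without a value in the gasz table was dropped. Linear models with an intensity trend (limma 3.58.1, R 4.3.3) were run on log2(score + 1), which understates changes of low families. Each knockdown minus w, and U2A minus ars2, came from 1 fit over 22 libraries with 1 mean per group; ars2 and U2A together minus w from 4 libraries; and together minus the 16 others from 18. P-values were adjusted over 159 families, and a lone library's error is assumed. The labels do not say whether replicates came from separate animals, so the spread may be technical. The fits were tested on simulated data. Families named in the text were drawn from the 10 highest and 10 lowest differences of both together, the 5 highest and lowest of the other contrasts, the 5 lowest p against the 16 others, and list members; called families and those 2-fold outside w or outside the other knockdowns were added after their values were seen. Members, lists and classes were chosen with earlier results of these data known. Families whose names are numbers alone are described without them. TART and batumi of the lists were not analysed here. Alternatives were other pseudocounts, filters, scalings, sources of spread and left-out libraries.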

Additional observations from a re-analysis of the deposited data

Results flagged for a closer look

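For 8 families the U2A and ars2 libraries differed in limma, with the spread borrowed from the w and ovary pairs. The log2 differences were -3.27 for Rt1b, -2.79 for Dmir_spock, -2.62 for HeT-A, -2.55 for Fw2, -2.23 for gypsy11, -2.08 for Damb_P-element_T, 1.80 for Transpac and 3.92 for blood. Each rests on 1 library per knockdown, so a difference between the knockdowns themselves was not tested. In the families with negative differences ars2 ranked between 5 and 10 among 18 knockdowns, so high scores there were not particular to ars2. None was called with no filter, with the spread from the w pair alone or without ovary replicate 1. No group had the 4 samples needed to look for a sample far from the others.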

How the results depend on the processing

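Counts are of families called higher and lower by limma. For ars2 minus w, 6 and 0 were called. There were 9 higher with a minimum score of 50, 8 after median-ratio scaling, 8 with a pseudocount of 10, 4 with a pseudocount of 0.1, 4 without the trend and 5 without families named for other species. The count higher was 0 with no filter on low values and 0 with the spread from the w pair alone; the count lower was 1 with a minimum score of 50. Leaving out 1 library of w or ovary gave 0 to 3 higher and 0 to 4 lower. For U2A minus w, 0 and 0 were called. There were 1 higher with a pseudocount of 10, 5 higher and 3 lower with a minimum score of 50, 2 higher and 1 lower after median-ratio scaling, 2 higher and 1 lower without families named for other species, and 2 higher without the trend. Leaving out 1 library gave 0 to 10 higher and 0 to 4 lower. For U2A minus ars2, 2 and 6 were called. There were 0 and 0 with no filter, with the spread from the w pair alone and without ovary replicate 1, 4 higher and 8 lower with a minimum score of 50, 11 higher and 6 lower without either w library in turn (6 of the 8 kept; chosen after seeing the data), and median-ratio scaling gave 5 higher and 10 lower. For both together minus w, 0 and 0 were called, and 1 was lower after median-ratio scaling. The cause of these shifts was not tested. For each knockdown minus w and for U2A minus ars2, leaving out either w library also left the ovary pair as the only source of spread. The rule of 2-fold outside both w values gave 10 and 2 for ars2, 6 and 3 for U2A and 1 and 1 for both. Without 1 w library it gave 11 to 17 and 3 to 8 for ars2, 8 to 20 and 4 to 10 for U2A and 1 to 5 and 1 to 5 for both; these last alternatives were chosen after seeing the data. Rt1c in U2A minus w ranged from -2.78 without w replicate 2 to 0.14 without w replicate 1. No call was made against the 16 other knockdowns under any setting run. No paired analysis was possible because the ars2 and U2A libraries carry no replicate number. Median-ratio scaling moved the median of U2A minus w from 0.13 to -0.04. The depth of w, the lowest of the 4 libraries, limits families of low score.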
